A study of Mus musculus with 28 samples.

Results

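The genes described here are 10 activation-associated transcripts of T cells: the galectins Lgals1 and Lgals3, the S100 genes S100a4, S100a6, S100a10 and S100a11, the annexins Anxa1 and Anxa2, and the cytoskeletal genes Vim and Crip1. They were taken by symbol from a table of 53801 features, and all 10 were present. RNA came from Treg cells of female and male C57BL/6 mice carrying CT2A, a murine GBM line tagged with GFP and GLUC, in the forebrain. All mice had tumors. Spleens or tumors were taken after IgG2a, the control antibody, or after αPD1 (clone RMP1-14) plus αGITR (clone DTA-1), given as 4 doses of 250 µg per mouse at intervals of 3 days, with harvest 2 days after the last dose. Values were available for 7 splenic libraries after IgG2a, 8 splenic libraries after αPD1 + αGITR, 5 GBM libraries after IgG2a and 7 GBM libraries after αPD1 + αGITR. The ages of the mice are not given in the sources used here, and the design text assigns each spleen or tumor to a different mouse. Label numbers nevertheless recur among the splenic libraries, with 79_a, 79_b, 79_c and 79_d after IgG2a and 70_a, 70_b and 70_c as well as 72_b and 72_c after αPD1 + αGITR. They also recur among the GBM libraries after αPD1 + αGITR, with 70_a and 70_b as well as 73_a and 73_b. The paper gives fewer animals per treatment than there are splenic libraries. If libraries with the same number share a mouse, the p-values below are too small. The model is a single implanted tumor line.

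Galectins are secreted and cytosolic lectins that bind galactose-containing glycans on cell surfaces. S100 proteins are small EF-hand calcium sensors and annexins bind acidic phospholipids in a calcium-dependent way. S100a10 pairs with Anxa2, and S100a11 with Anxa1, in complexes at the membrane. Vim encodes the intermediate filament vimentin and Crip1 a small LIM-domain protein. In T cells these transcripts are widely used as signs of antigen experience and of effector or tissue-resident states.

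The 4 S100 members lie on the same chromosome. In GRCm38, S100a4 spans chr3:90603771-90606045, S100a6 chr3:90612882-90624181, S100a11 chr3:93520488-93526287 and S100a10 chr3:93555080-93564643, all on the plus strand. RefSeq promoter windows (GRCm38.p6, 250 bases before to 50 after the start) were found for 8 of the 10, all but Lgals1 and S100a10. The following 60 bases end just before the RefSeq start on the plus strand and are shown for called members that lie outside annotated exons or overlap them by at most 12 bases. Capitals mark a TATA box (TATAAA), a GC box (GGGCGG), an AP-1 site (TGANTCA) or a CCAAT box (CCAAT), each searched on both strands.
S100a4 (chr3:90603710-90603769): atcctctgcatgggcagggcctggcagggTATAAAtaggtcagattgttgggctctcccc
S100a6 (chr3:90612834-90612893): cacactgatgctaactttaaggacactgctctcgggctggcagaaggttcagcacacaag
S100a11 (chr3:93520436-93520495): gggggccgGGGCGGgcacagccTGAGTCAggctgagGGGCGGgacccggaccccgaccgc
Crip1 (chr12:113151952-113152011): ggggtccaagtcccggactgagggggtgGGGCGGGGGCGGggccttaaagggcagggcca
In the whole windows, TATAAA was found in 4 of the 8 (S100a4, Anxa1, Anxa2 and Vim), against 13.6% of 32544 promoters. The GC box was in 4 of the 8, against 35.9%, the AP-1 letters in 2 (S100a11 and Anxa2), against 7.79%, and CCAAT in 3, against 37.4%. The stretches shown differ from each other, with TATAAA in S100a4, paired GC boxes in S100a11 and Crip1, and none of the letters searched in that of S100a6. These matches are descriptions of the letters and no factor was measured.

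The identity of the libraries bears on each value. All 9 T and Treg markers were above 0 in each of the 27 libraries, and their summed TPM had medians of 774 and 715 in spleen (IgG2a and αPD1 + αGITR) and 1451 and 2187 in GBM. Macrophage and microglia markers (17 genes) summed to 35.4 to 97.4 TPM in spleens after IgG2a, 18.1 to 356 after αPD1 + αGITR, 74.3 to 6116 in GBM after IgG2a and 56.7 to 2347 in GBM after αPD1 + αGITR. The GBM library 79_a after IgG2a held the 6116 TPM, with all 17 markers above 0, and the next library of its group 309. The GBM library 73_a after αPD1 + αGITR held the 2347 TPM, with 14 of 17 above 0, and the next 297. Glial and glioma markers reached 180 TPM and stromal markers 540 TPM, both in 79_a. In bulk RNA, fewer cells of a type and less RNA per cell cannot be told apart. Between 7702 and 17460 genes had a TPM above 1, and the 10 most abundant features took 31.9% to 78.3% of a library's TPM.

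The first comparison asks how GBM Treg cells differ from splenic Treg cells without active treatment. After IgG2a, all 10 members had a higher mean log2(TPM + 1) in GBM, and the median of their log2 fold changes was 2.43, against 0.48 over the 7380 genes tested. A gene was tested once its mean was above 10 TPM in either group, and S100a4 and Anxa1 entered through GBM alone, the group in which they were higher. The 8 members above 10 TPM in both tissues had a median of 2.43 as well, against 0.324 over the 4476 such genes. T and Treg markers had a median of 1.29 (9 genes) and the 12 of 17 macrophage and microglia markers tested 1.66, and none of either list passed. Of these macrophage and microglia markers at least C1qa, Cx3cr1, Cd68, Aif1, Tmem119 and Ms4a7 were below 10 TPM in every splenic library. They entered through GBM alone, the group in which they were higher, which raises the median of that list. Under limma with Benjamini-Hochberg adjustment 1 of the 10 passed, Lgals1, where 0.488% of all genes passed in this direction. Without adjustment 7 of the 10 had a p under 0.05 and were higher, against 7.63% of genes, and 6 of these 7 were among the 8, against 5.65%. No member had groups that did not overlap, against 1.25% of genes.

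**Figure D1:**
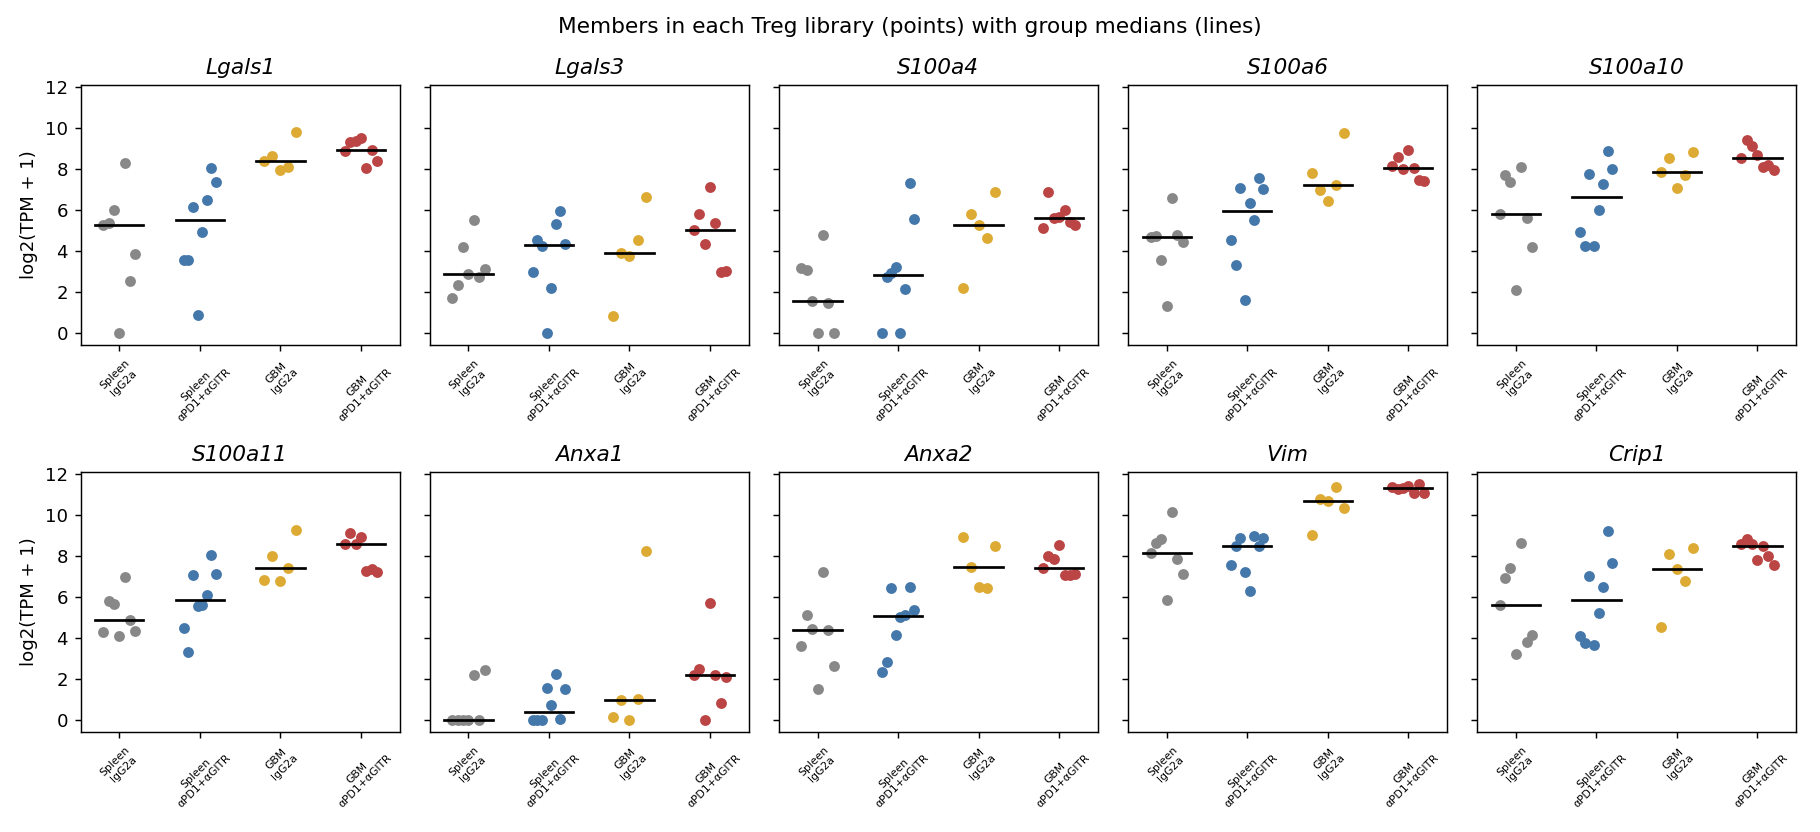
Each panel plots 1 member, with log2(TPM + 1) on the vertical axis, 1 point per library in each of the 4 groups and a line at the group median. Vim libraries of GBM after αPD1 + αGITR sit in a narrow band between 2145 and 2979 TPM, while splenic libraries of most members spread widely.

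Lgals1 encodes galectin-1, a lectin that Treg cells secrete. Its TPM in GBM after IgG2a was 339, 408, 247, 272 and 902 in its 5 libraries, of which the last 4 are named 76_a, 77_a, 78_a and 79_a. In spleen it ran from 0 through a median of 37.9 to 322 TPM (n = 7). A single splenic library, 79_b, lay inside the GBM range, and the other 6 were at 64.4 TPM or below. The log2 fold change was 4.10 (SE 0.97, limma adjusted p = 0.03425, exact permutation p = 0.007576). Over 26 alternatives the adjusted p ran from 0.004285 to 0.6566 and was under 0.05 in 10. It was 0.1209 without the GBM library 79_a and 0.004285 without the splenic library 79_b.

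Anxa2 encodes annexin A2, which binds S100a10 at the membrane. Its TPM in GBM after IgG2a was 487, 174, 90.5, 87.6 and 357 in the same order of libraries, against 1.92 to 150 with a median of 20.0 in spleen. The groups overlapped through splenic library 79_b. The log2 fold change of 3.43 (SE 0.87) gave a limma adjusted p of 0.05308, and the exact permutation p was 0.007576. S100a6, a calcium sensor also called calcyclin, was at 223, 129, 85.5, 151 and 883 TPM in GBM and 1.54 to 95.7 in spleen, median 25.1. Its log2 fold change was 3.34 (SE 0.84, limma adjusted p = 0.05308, exact permutation p = 0.002525). For both genes 1 splenic library, 79_b, was above the lowest GBM value.

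The remaining S100 genes followed with smaller differences. S100a4, tied to cell motility, was at 3.69, 55.4, 37.7, 23.8 and 117 TPM in GBM and from 0 to 26.6 in spleen, where 2 of 7 libraries were listed at 0. Its log2 fold change was 2.95 (SE 0.97, limma adjusted p = 0.1983). S100a11 had 2.50 (SE 0.76, limma adjusted p = 0.1464) and S100a10 had 2.16 (SE 0.87, limma adjusted p = 0.377). Vim, the filament gene with the highest TPM of the members in all 4 groups, was at 530, 1763, 1658, 2684 and 1314 TPM in GBM and 57.7 to 1154 in spleen, with 2.37 (SE 0.76, limma adjusted p = 0.1779).

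Lgals3, Anxa1 and Crip1 separated the tissues least. Lgals3, which encodes galectin-3 and is abundant in macrophages, was at 0.83, 13.99, 12.9, 22.3 and 99.9 TPM in GBM and 2.33 to 44.5 in spleen, a log2 fold change of 0.72 (SE 0.94, limma adjusted p = 0.771). Crip1 gave 1.36 (SE 0.91, limma adjusted p = 0.625). Anxa1, an annexin abundant in myeloid cells, was at 0.1, 0.99, 0, 1.08 and 308 TPM in GBM, and 5 of 7 splenic libraries were listed at 0. It entered the test through library 79_a alone, and its 1.43 (SE 1.21, limma adjusted p = 0.6741) rests on that library. Library 79_a, which had the highest macrophage marker sum, was the highest of its group for 8 of the 10 members, all but Anxa2 and Vim. Without that library Lgals3 had a log2 fold change of 0.05, Anxa1 no longer reached the filter and had a mean log2(TPM + 1) of 0.547 in GBM against 0.664 in spleen, and the median over the members still tested was 2.39.

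The second comparison sets the same tissues side by side after αPD1 + αGITR. Of the 9 members tested, 8 rose in GBM by limma, all but Lgals3, where 15.8% of the 7506 genes passed in this direction. The median log2 fold change was 2.70 against 0.954 over all genes tested. All 9 averaged above 10 TPM in both tissues. Marker lists also had medians above that of all genes, 1.58 for the 9 T and Treg markers, of which 5 passed, and 1.94 for the 9 of 17 macrophage and microglia markers tested, of which Cx3cr1 and C1qa passed. Cx3cr1 was at or below 6.65 TPM in every splenic library, so it entered through GBM alone. C1qa had a splenic median of 4.29 TPM and a highest splenic value of 23.1 TPM. Csf1r (-0.39) and Lyz2 (-1.15) were lower in GBM, and the other macrophage and microglia markers tested were higher. The part of the macrophage list in the members' values was not tested. Groups did not overlap for 3 members, Lgals1, Anxa2 and Vim, against 2.96% of genes. Anxa1 did not reach the filter in either group.

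**Figure D2:**
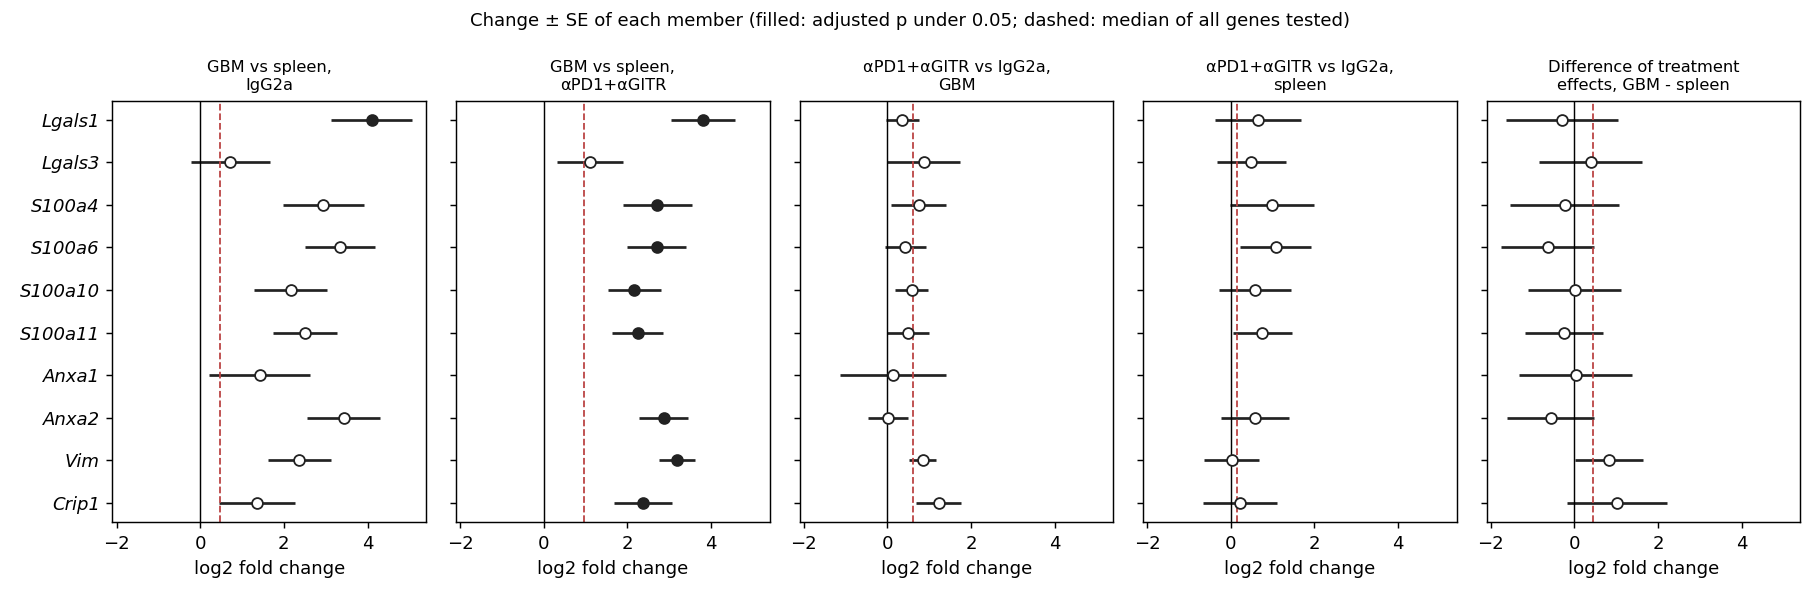
Each panel shows 1 comparison, with the log2 fold change on the horizontal axis, a point per member, bars of 1 SE, filled points for an adjusted p under 0.05 and a dashed line at the median of all genes tested. The points lie right of the dashed line in both tissue comparisons and around it in GBM after treatment, where the median of the members is 0.543 and that of all genes 0.623.

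Vim gave the lowest p of the members. Its TPM ran from 2145 through 2593 to 2979 in GBM (n = 7) and from 78.6 through 361 to 503 in spleen (n = 8). Every GBM library was above every splenic one. The log2 fold change was 3.19 (SE 0.43, limma adjusted p = 9.712e-05), and the exact permutation p of 0.0001554 is the smallest that 7 against 8 libraries can give. Vim passed in all 30 alternatives, with an adjusted p between 7.37e-06 and 0.01179.

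Lgals1 ran from 272 through 488 to 739 TPM in GBM and from 0.86 through 50.3 to 272 in spleen. The lowest GBM value, 271.92 TPM, lay just above the highest splenic value, 271.63 TPM. The log2 fold change was 3.80 (SE 0.77, limma adjusted p = 0.003169, exact permutation p = 0.000777), and it passed in all 29 alternatives. Anxa2 ran from 133 through 170 to 368 TPM in GBM and from 4.12 through 32.6 to 89.2 in spleen. The log2 fold change was 2.86 (SE 0.59, limma adjusted p = 0.003667, exact permutation p = 0.0004662). Its adjusted p was under 0.05 in 29 of 30 alternatives.

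The S100 genes rose together. S100a6, from 170 to 486 TPM in GBM and 2.07 to 192 in spleen, gave 2.70 (SE 0.70, limma adjusted p = 0.01556). S100a4, from 34.2 to 118 TPM in GBM and 0 to 162 in spleen with 2 of 8 libraries listed at 0, gave 2.72 (SE 0.83, limma adjusted p = 0.03157). S100a11 gave 2.24 (SE 0.60, limma adjusted p = 0.01785) and S100a10 gave 2.17 (SE 0.64, limma adjusted p = 0.02683). In each of the 4, at least 1 splenic library lay inside the GBM range. Splenic library 74_a was the highest of its group for all 4.

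Crip1 rose as well, from 11.9 through 62.9 to 607 TPM in spleen to 191 through 360 to 457 in GBM, a log2 fold change of 2.38 (SE 0.69, limma adjusted p = 0.02503). Splenic library 74_a, at 607 TPM, exceeded every GBM library. Lgals3 was at 7.1 to 139 TPM in GBM and 0 to 62.3 in spleen, a log2 fold change of 1.11 (SE 0.78, limma adjusted p = 0.2713). Its highest value belongs to GBM library 73_a, which had the highest macrophage marker sum of that group and was the highest for 5 of the 10 members, Lgals1, Lgals3, S100a6, Anxa1 (52.3 TPM) and Anxa2.

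These calls vary in how far they hold when the scale changes. Scaled to the 9 T and Treg markers of each library, an alternative chosen after values had been seen, 2 members passed after αPD1 + αGITR, Lgals1 at 2.35 and Vim at 1.61, and none after IgG2a. Of all genes 12.7% and 0.705% then passed in either direction, against 17.5% and 0.569% as first fitted. The median of the members was then 1.19 and 1.09, and the median of all genes -0.455 and -0.624. With TMM-type factors 4 passed after αPD1 + αGITR, where 7.98% of all genes passed in either direction, and with libraries of the same label number averaged 3 did, against 3.53%. With the label number fitted as a block 5 passed, against 6.59% of all genes. Without the macrophage-high library 73_a 7 of the 8 passed, against 9.38% of all genes, with S100a4 at a limma adjusted p of 0.05305. S100a4 passed in 14 of its 29 alternatives (limma adjusted p from 0.004082 to 0.2718), S100a10 in 18 of 29 (up to 0.3871) and Crip1 in 19 of 29 (up to 0.2631). S100a11 passed in 26 of 30 and S100a6 in 27 of 30.

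**Figure D3:**
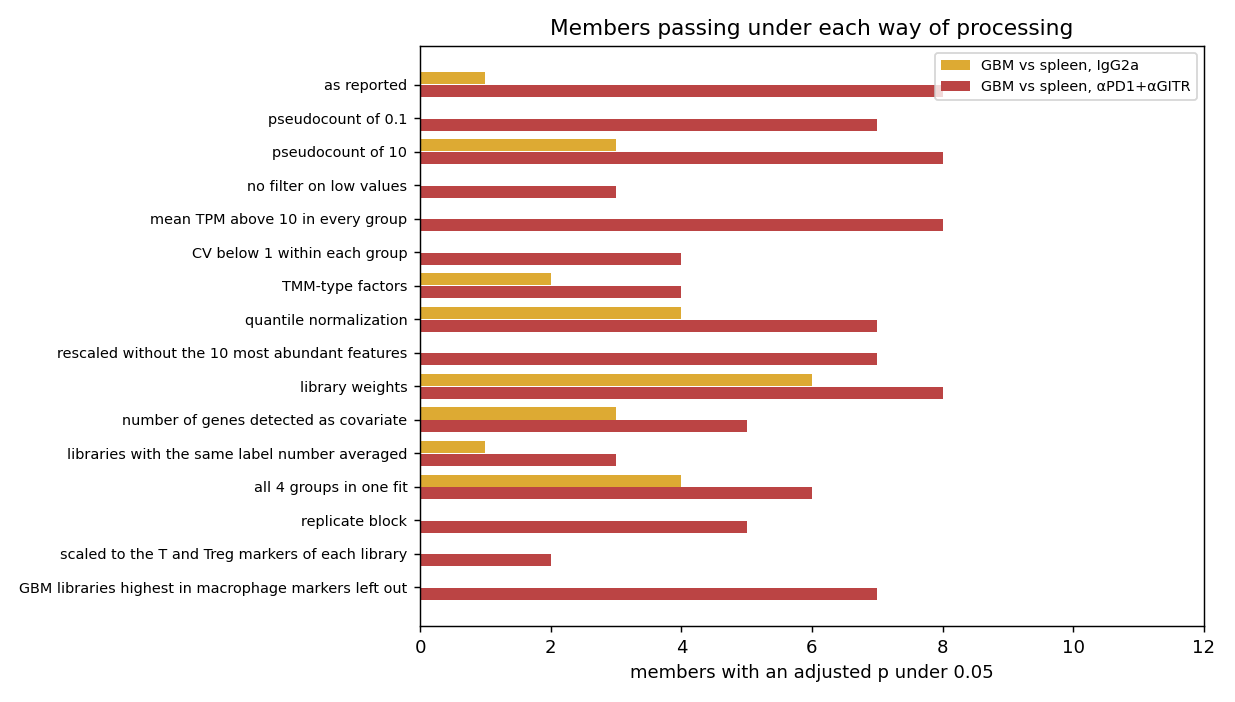
Bars give the number of members with an adjusted p under 0.05 in the comparison of GBM with spleen, for each way of processing on the vertical axis, after IgG2a and after αPD1 + αGITR. The count lies between 0 and 6 after IgG2a and between 2 and 8 after αPD1 + αGITR.

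The third comparison asks what αPD1 + αGITR did to the members within GBM. None of the 10 passed by limma with adjustment, and neither did any of the 7848 genes tested (0.0% passed). Without adjustment 2 members were higher, Vim and Crip1, while 17.4% of all genes were. The median log2 fold change was 0.543 against 0.623 over all genes, so 4 of the 10 lay above the median of all genes. By the exact permutation test 2 members had an unadjusted p under 0.05, the same 2. Vim had a log2 fold change of 0.84 (SE 0.33, limma adjusted p = 0.1687, exact permutation p = 0.008838, 95% interval 0.15 to 1.54). Crip1 had 1.23 (SE 0.54, limma adjusted p = 0.1973, exact permutation p = 0.03535, 95% interval 0.10 to 2.36). The first GBM library after IgG2a was the lowest of both groups for these genes, at 530 and 22.4 TPM, and without it the values were 0.49 and 0.61.

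For the other 8 members the intervals of the change in GBM held 0. Anxa2 had a log2 fold change of 0.01 (95% interval -0.99 to 1.02), Lgals1 0.36 (-0.47 to 1.18), S100a6 0.44 (-0.61 to 1.48), S100a11 0.50 (-0.54 to 1.54), S100a10 0.58 (-0.25 to 1.42), S100a4 0.75 (-0.61 to 2.12), Lgals3 0.87 (-0.94 to 2.68) and Anxa1 0.14 (-2.49 to 2.76). Without 1 library at a time, S100a4 ran from 0.07 to 1.23, Lgals3 from 0.10 to 1.55, S100a6 from 0.13 to 0.97, S100a11 from 0.28 to 0.90, S100a10 from 0.36 to 0.79 and Lgals1 from 0.20 to 0.66, all highest without 79_a. Under TMM-type factors, which bring the median of all genes to 0.0547, Lgals1, S100a6, S100a10, S100a11, Anxa1 and Anxa2 turned negative. Each of these 8 intervals also held a log2 change of 1, a rise of 2-fold.

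In the spleen, 9 members were tested and none passed by limma, as none of the 6634 genes did (0.0%). Without adjustment none of the 9 had a p under 0.05, where 2.53% of genes had, and by the exact permutation test none had either. The median log2 fold change was 0.577 against 0.15 over all genes. Values were lowest for Vim, 0.02 (SE 0.65), and highest for S100a6, 1.07 (SE 0.85), followed by S100a4, 0.99 (SE 1.00), S100a11, 0.75 (SE 0.70), Lgals1, 0.65 (SE 1.04), S100a10, 0.58 (SE 0.86), Anxa2, 0.58 (SE 0.80), Lgals3, 0.49 (SE 0.82) and Crip1, 0.21 (SE 0.89).

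The difference between the treatment effects of the tissues was tested as an interaction over all 4 groups. None of the 10 members and none of the 8687 genes passed by limma (0.0%), and without adjustment none of the members had a p under 0.05, against 12.2% of genes. The median was -0.112 against 0.446 over all genes, with 5 members above 0 and 5 below. Crip1 was highest at 1.02 (SE 1.19), then Vim 0.83 (SE 0.81), Lgals3 0.39 (SE 1.23), Anxa1 0.03 (SE 1.36) and S100a10 0.01 (SE 1.11). Below 0 lay S100a4 at -0.23 (SE 1.31), S100a11 -0.25 (SE 0.93), Lgals1 -0.29 (SE 1.33), Anxa2 -0.56 (SE 1.04) and S100a6 -0.64 (SE 1.12). Only Vim and Crip1 kept their sign in all the alternatives run.

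In all libraries together, the mean log2(TPM + 1) of the 10 members was lowest in spleen after IgG2a, then spleen after αPD1 + αGITR, GBM after IgG2a and GBM after αPD1 + αGITR. Of the 8687 features with a mean above 10 TPM in a group, 17.2% had this order, so it is not particular to these genes. Some steps were small, from 8.09 to 8.11 for Vim in spleen and from 7.57 to 7.58 for Anxa2 in GBM. The order was lost for Lgals3 and Anxa1 without GBM library 79_a and for Anxa1 and Anxa2 without GBM library 73_a. TMM-type factors turned the step within GBM for 6 members, and library weights the step within spleen for 5. Neighbours that share a tissue did not pass in any member by the adjusted test. The middle neighbours, spleen after αPD1 + αGITR and GBM after IgG2a, differ in both tissue and treatment, and their groups were apart in Vim alone (exact permutation p = 0.000777), against 0.613% of 7666 genes. Between these neighbours Lgals3, S100a4, S100a10, Anxa1 and Crip1 did not differ beyond the spread of the libraries, with unadjusted exact permutation p-values from 0.1049 (S100a10) to 0.8392 (Lgals3). Vim had the highest level of the members in each group and Anxa1 the lowest, with group medians of 0 to 3.55 TPM.

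Spread within a group also differed between members and groups. For Vim the SD of log2(TPM + 1) was 0.17 in GBM after αPD1 + αGITR, 0.87 in GBM after IgG2a, 0.97 in spleen after αPD1 + αGITR and 1.36 in spleen after IgG2a. The mean over the 10 members in log2(TPM + 1) ran from 6.72 to 8.24 in GBM after αPD1 + αGITR, 5.67 to 8.68 in GBM after IgG2a, 3.22 to 7.03 in spleen after αPD1 + αGITR and 2.11 to 6.86 in spleen after IgG2a. The highest splenic libraries, 79_b and 74_a, also had the highest T and Treg marker sums of their groups, 2410 and 2139 TPM. The same libraries had the highest B cell, CD8 T cell and stromal marker sums of their groups. Their shares of TPM in the 10 most abundant features were the lowest of their groups, 31.9% and 40.1%.

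**Figure D4:**
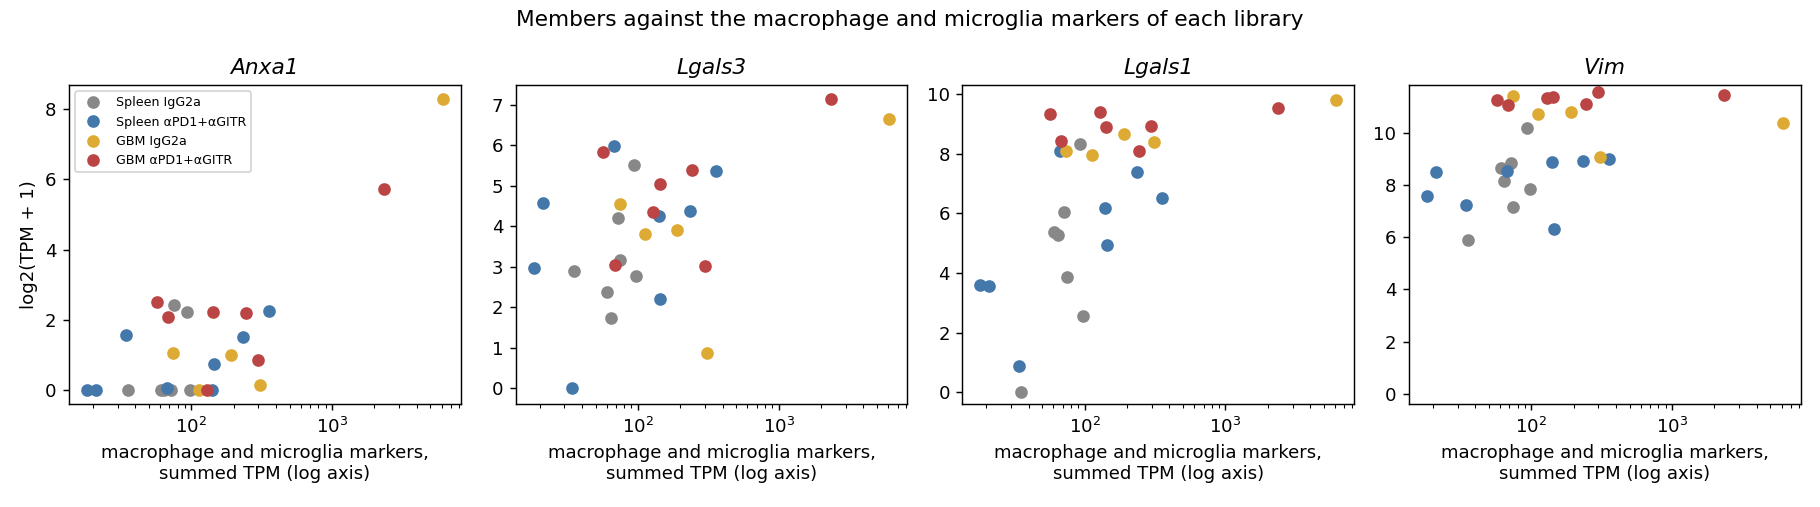
Each panel plots log2(TPM + 1) of 1 member against the summed TPM of 17 macrophage and microglia markers on a log axis, with 1 point per library. The libraries at 6116 and 2347 TPM are each the highest of their group for Anxa1, Lgals3 and Lgals1, while their Vim values lie within the range of the other GBM libraries.

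Across the 27 libraries most members moved together. Spearman correlations were highest for S100a10 with S100a11 (0.951) and Lgals1 with Anxa2 (0.941). The pair S100a10 and Anxa2, partners in a complex, had 0.877. Anxa1 had 0.414 to 0.542 with the other members and Lgals3 0.479 to 0.694. These values pool 4 groups and are descriptions over libraries that also differ in T cell marker level and in the share of abundant features. The 5 genes outside the list most like the mean of the members among 8677 genes were Actb (0.963), Actg1 (0.96), Clic1 (0.954), Tnfrsf18 (0.953) and Gm27048 (0.951). Tnfrsf18 encodes GITR, and its median TPM was 24.1 and 33.6 in spleen and 244 and 450 in GBM (IgG2a and αPD1 + αGITR).

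Of 33 other galectin, S100, annexin and Crip genes, 32 were in the table. None of the 9 tested passed in GBM against spleen after IgG2a by limma (0.488% of all genes passed as higher), with 2 higher without adjustment (7.63% of all genes). Of these 2, 1 averaged above 10 TPM in GBM alone. Among the 5 above 10 TPM in both tissues after IgG2a, 1 was higher without adjustment, against 5.65% of such genes. After αPD1 + αGITR 7 of 9 rose, where 15.8% of all genes passed in this direction. The count was 3 without the macrophage-high GBM library 73_a and 0 with T and Treg marker scaling, under which Anxa6 turned to -0.36. Lgals7, S100a13 and Anxa11 averaged above 10 TPM in GBM alone, the tissue in which they were higher, so they could only enter as higher genes. Of the 5 above 10 TPM in both tissues 4 rose, against 696 of the 4966 such genes. The 7 were Lgals7 (log2 fold change 3.05), Lgals3bp (2.85), S100a13 (2.47), Lgals9 (2.32), Anxa11 (1.89), Anxa7 (1.83) and Anxa6 (1.22). Lgals9 encodes galectin-9, a ligand of Tim-3, and rose from a median of 18.6 TPM in spleen to 79.3 in GBM. The median over those 5 was 1.83, against 0.952 over these 4966 genes. The neutrophil genes S100a8 and S100a9 were at or below 16.1 TPM in every library.

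Of 24 binding partners, receptors and cytoskeletal neighbours, 18 were tested in GBM against spleen. None passed after IgG2a by limma (0.488% of all genes passed as higher), with 6 higher without adjustment (7.63% of all genes), 3 of them above 10 TPM in GBM alone. After αPD1 + αGITR 12 of 18 rose, against the same 15.8% of genes. The count was 6 without library 73_a and 2 with T and Treg marker scaling, under which Plec turned to -0.0439 and Tpm3 to -0.19. Havcr2 and Ahnak averaged above 10 TPM in GBM alone, and of the 16 above 10 TPM in both tissues 10 rose, against the same 696 of 4966 such genes. Among actin-linked genes these were Capg (log2 fold change 3.19), Tpm4 (2.60), Tagln2 (2.54), Zyx (2.04), Myh9 (1.73) and Tpm3 (1.39). Lmna (3.17), Ahnak (1.77), a partner of the complex of Anxa2 and S100a10, and Plec (1.49), a linker of vimentin filaments, rose as well. At the surface Havcr2 (3.16), which encodes Tim-3, Cd44 (2.22) and Emp3 (2.13) rose. Ptprc, Spn, Flna, Tln1, Csrp1 and Itgb1 did not pass. The median over the 16 was 1.62, against 0.952 over such genes. No gene of either list passed by limma in the comparisons of αPD1 + αGITR with IgG2a or in the interaction.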

How the data were processed

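Treg cells (TCR+CD4+CD25hi CD127lo) were sorted from spleens and CT2A tumors and sequenced in bulk by Smart-Seq2. The authors used TopHat for alignment to mm10 and RSEM for TPM. Versions and the annotation are not given in the sources used here. The deposited values are score values in the sense that each equals TPM plus 1, so 1 was taken off. The read depth is unknown, and precision rests on the spread between libraries. Of 28 libraries labelled, 27 were used. The last, of a treated spleen, was not analysed here, since 1 unnamed column was not assigned.

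The groups compared were fitted on log2(TPM + 1), a pseudocount of 1, by limma 3.58.1 (R 4.3.3, eBayes with an intensity trend). A gene entered once any of these groups averaged over 10 TPM, p-values were two-sided and Benjamini-Hochberg adjusted over all genes tested, and the threshold was 0.05. Members were further compared by exact permutation, two-sided. Positions are from GENCODE M21 and promoters from RefSeq. The 10 members, the gene lists and the motifs were chosen with earlier results of these data known, and all 10 members are named in each comparison. Of the other lists, genes past the adjusted threshold are named. The fits were tested on simulated data with independent genes and a set change larger than any of the members between treatments. Smaller changes and correlated genes were not simulated. The alternatives were listed with the design, except 2 chosen after values had been seen: leaving out the GBM libraries highest in macrophage markers, and scaling to T and Treg markers. The 60-base promoter stretches were also chosen after the sequences had been seen. Same-numbered libraries of the 2 tissues correlated between -0.159 and 0.182 in their deviations from group means, so the label numbers were not taken to pair libraries.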

Additional observations from a re-analysis of the deposited data

Results flagged for a closer look

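Among 40 sets of values (10 members in 4 groups), 1 library stood apart from the others of its group by Dixon's criterion. Anxa1 in GBM after IgG2a was at 308.2 TPM in library 79_a, where the gap to the next library was 0.872 of the whole range against a critical value of 0.71. Chance flags about 1 in 20 such sets. The same library had 6116 TPM in macrophage and microglia markers. Groups of 5 to 8 libraries were checked.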

How the results depend on the processing

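Read depth is unknown, so it could not be weighed, and the number of libraries limits precision. Alternatives changed 1 choice at a time. In GBM against spleen, 8 members (all but Lgals3 and Anxa1) kept their direction in each alternative that tested them. Anxa1 was higher in GBM wherever it was tested, which after αPD1 + αGITR was in 8 alternatives only. After IgG2a it could not be fitted without GBM library 79_a, where its GBM mean log2(TPM + 1) of 0.547 lay below the 0.664 of spleen. Lgals3 turned to -0.38 after IgG2a and -0.077 after αPD1 + αGITR when libraries were scaled to T and Treg markers, an alternative chosen after seeing the data. The cause of changed counts was not tested. The share of all genes called in either direction moved too, from 0.0146% to 3.55% after IgG2a and from 0.6% to 30.1% after αPD1 + αGITR.

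After IgG2a, 1 member passed. The count was 0 with a pseudocount of 0.1, no filter, a filter at 10 TPM in all groups, a CV below 1 (3 members tested), rescaling without the 10 most abundant features, the replicate block, T and Treg marker scaling and the macrophage-high libraries left out. It was 2 with TMM-type factors, 3 with a pseudocount of 10 or the number of genes detected as covariate, 4 with quantile normalization or all 4 groups in one fit and 6 with library weights. Leaving out each library gave 0 to 3. Lgals1 lost its call without any 1 of the 5 GBM libraries or splenic libraries 76_a, 79_a, 79_c or 79_d, and 3 members passed without splenic library 79_b. Other family genes passed in 1 case (from 0) with a pseudocount of 10, library weights or all 4 groups. Partner genes (from 0) numbered 1 with a pseudocount of 10 or TMM-type factors, 2 with quantile normalization, 5 with library weights and 4 with all 4 groups, and 0 to 2 without each library.

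After αPD1 + αGITR, 8 members passed. The count was 3 without a filter or with same-numbered libraries averaged, 4 with the CV filter (4 members tested) or TMM-type factors, 5 with the covariate or the replicate block and 2 with T and Treg marker scaling, where the median fell to 1.19. Leaving out each library gave 5 to 8, with 5 without GBM library 70_b or splenic library 70_a. The 7 other family genes became 1 without a filter, with TMM-type factors or averaged, 2 with a filter at 10 TPM in all groups or rescaled, 3 with quantile normalization, the replicate block or macrophage-high libraries out, 4 with the covariate and 0 with T and Treg marker scaling, and 3 to 8 without each library. The 12 partner genes became 2 without a filter or with T and Treg marker scaling, 3 averaged, 4 with TMM-type factors, 5 rescaled or with the replicate block, 6 with macrophage-high libraries out, and 7 with the CV filter, quantile normalization or all 4 groups, and 6 to 13 without each library. Anxa6, Plec and Tpm3 turned to -0.361, -0.0439 and -0.19 with T and Treg marker scaling. Label numbers were not taken to pair the libraries (1 of 9 same-number correlations was above 0.1), but what the numbers stand for is not given. That check cannot decide whether same-numbered libraries share a mouse, since the highest correlation with any number was only 0.182. Treated and IgG2a groups share no numbers.

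No member passed in a comparison of treatments or in the interaction under any alternative. Partner genes in GBM numbered 2 with library weights and 1 with the covariate. In GBM after treatment, TMM-type factors gave -0.34 for Lgals1, -0.26 for S100a6, -0.11 for S100a10, -0.20 for S100a11, -0.0432 for Anxa1 and -0.68 for Anxa2. T and Treg marker scaling gave -0.0425 for Lgals1, -0.13 for Anxa1 and -0.38 for Anxa2. Quantile normalization gave -0.36 for Anxa1 and -0.19 for Anxa2, averaging -0.0574 and -0.0121, rescaling without the 10 most abundant features -0.0913 for Anxa2, and a pseudocount of 10 gave -0.40 for Anxa1. Without each library Anxa1 ran from -0.45 to 0.51 and Anxa2 from -0.26 to 0.35.

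In spleen, library weights gave -0.0551 for Lgals1, -0.15 for S100a10, -0.0868 for Anxa2, -0.10 for Vim and -0.42 for Crip1. Vim was -0.19 with TMM-type factors, -0.23 averaged and -0.20 with T and Treg marker scaling, and Crip1 was -0.0016 with quantile normalization. Without each library Vim ran from -0.35 to 0.36, Crip1 from -0.27 to 0.70, Lgals1 from -0.10 to 1.29 and S100a10 from -0.0441 to 0.95.

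In the interaction, 8 of the 10 members changed sign in some alternative. Library weights gave 0.59 for Lgals1, -0.66 for Lgals3, 0.32 for S100a6, 0.29 for S100a11 and 0.65 for Anxa2. S100a10 was -0.0297 with a pseudocount of 0.1, -0.044 rescaled, -0.53 with TMM-type factors, -0.15 with the covariate and -0.20 with T and Treg marker scaling. Anxa1 was -0.40 with a pseudocount of 10, -0.17 with TMM-type factors, -0.86 with quantile normalization, -0.0397 with the covariate, -0.67 averaged and -0.53 with T and Treg marker scaling. Lgals3 was -0.23 with quantile normalization and -0.64 averaged. With macrophage-high libraries out, S100a4 was 0.26 and S100a11 0.022. Without each library Anxa1 ran from -0.55 to 0.40, Lgals1 from -0.93 to 0.46, Lgals3 from -0.39 to 1.06, S100a10 from -0.37 to 0.63, S100a11 from -0.62 to 0.15 and S100a4 from -0.92 to 0.39.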
